A study of Mus musculus with 12 samples.

Results

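Brain myeloid cells freed from tissue by warm enzymatic digestion were compared with cells freed by cold Dounce homogenization, with no transcription or translation inhibitor in either preparation. The comparison used 6 of the 12 libraries of the series, chosen by their labels as the 3 enzymatic (ENZ-NONE, replicates 4, 5 and 6) and the 3 cold Dounce (DNC-NONE, replicates 1, 2 and 3) preparations without inhibitors. All were whole brains of male C57BL/6J mice at about postnatal day 90, 1 animal a library, from which live cells carrying CD45 and CD11b were sorted and captured with a droplet kit that counts the 3′ ends of transcripts by unique molecular identifiers (UMIs). The other 6 libraries (ENZ-INHIB and DNC-INHIB, 3 each) were prepared in the same 2 ways with a cocktail of actinomycin D, triptolide and anisomycin, and served here for the spread between animals and for the effect of digestion when new RNA and protein are blocked. Neither group in the main comparison is an untouched brain, since Dounce cells were also stained and sorted.

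Of 14212 deposited barcodes in the 6 libraries, 8527 (60%) were kept for having 500 or more genes, 1000 or more UMIs and no more than 10% of UMIs from mitochondrial genes, against 18830 of 28426 in the series. Kept barcodes ranged from 855 to 1839 a library and their UMIs from 1062871 to 2729825, and 0 to 7 barcode sequences were shared by any 2 of the 6 libraries. Median UMIs per kept barcode were 1153 to 1270 in DNC-NONE and 1298 to 1484.5 in ENZ-NONE. ENZ-NONE replicate 6 stood apart from its group (chi-square per degree of freedom 6.5 against replicate 4, and 1.6 between replicates 4 and 5), as did DNC-NONE replicate 1 from replicate 3 (5.15). Batch 1 of the labels held DNC-NONE 1 and 2 and ENZ-NONE 4 and 5, and batch 2 held DNC-NONE 3 and ENZ-NONE 6.

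Microglia are the resident macrophages of the brain and sense injury through surface receptors that feed MAP kinase, NF-kB and stress pathways. Immediate early genes such as Fos, Jun and Egr1 are copied within minutes of such a signal without new protein synthesis, and their products then switch on later genes. Heat shock genes answer warmth and misfolded protein through their own transcription factor, and chemokines such as Ccl3 and Ccl4 attract other immune cells.

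After digestion, 41 genes were higher and 19 lower of 9899 tested. The higher genes were led by the heat shock genes Hspa1a and Hspa1b, the phosphatase gene Dusp1 and the AP-1 gene Fos, with log2 fold changes from 5.71 to 7.63, and also held Jun, Jund, Junb, Egr1, the chemokine genes Ccl3 and Ccl4 and 6 histone genes. Their summed level rose from 5427, 3234 and 3588.5 CPM (UMIs per 1000000 in a library) in DNC-NONE 1, 2 and 3 to 13288, 12539.8 and 24790.0 CPM in ENZ-NONE 4, 5 and 6. The lower genes had a median level of 21.8 CPM against 28.6 CPM for all genes tested and were led by the non-coding transcript Gm20045 and by Zfp146. Their sum fell from between 996.35 and 1105.2 CPM to between 580.31 and 631.6 CPM. Microglial identity genes did not pass the test in either direction.

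A gene was called when its adjusted p (edgeR's quasi-likelihood test on UMIs summed per library, Benjamini-Hochberg) was under 0.05 and its log2 fold change was beyond 0.58. The background share called was 0.606% in either direction, 0.414% higher and 0.192% lower, and the median log2 fold change of all genes tested was 0.002. The ENZ-NONE and DNC-NONE libraries did not overlap for any of the 60 genes; of all genes tested, 6.16% had every ENZ-NONE library above every DNC-NONE library and 6.06% the reverse. An estimate of the spread made robust to outlying genes called 26 genes higher and 19 lower, 25 and 17 of them among the 41 and 19. It removed Fos, Jun, Junb, Zfp36, Ccl4, Klf2 and Atf3, among others, from the higher set. The calls of 27, 29 and 35 of the 41 held without DNC-NONE replicate 2, DNC-NONE replicate 3 and ENZ-NONE replicate 6.

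**Figure D1:**
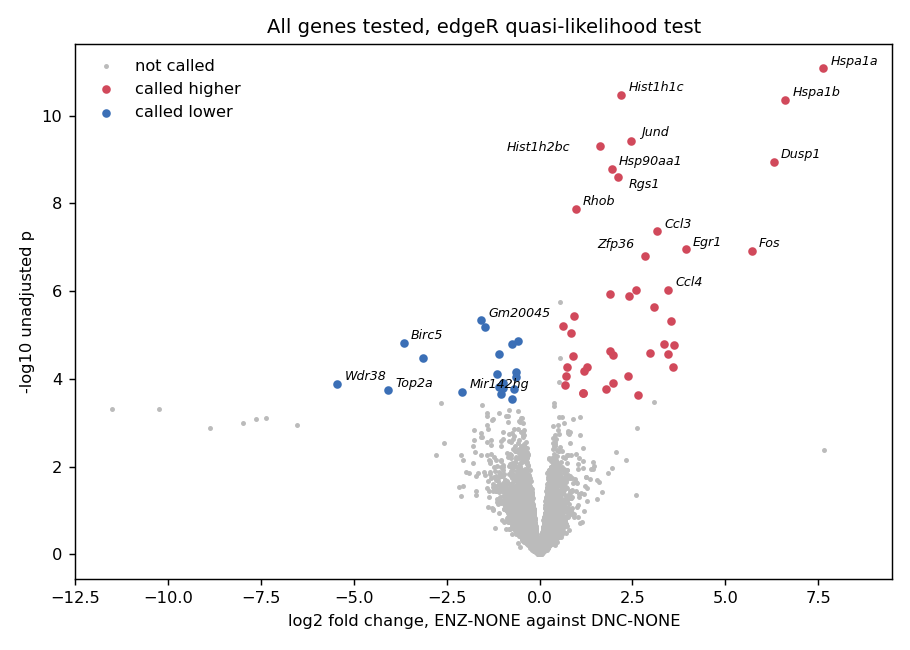
Each point is 1 of the 9899 genes tested, with the log2 fold change of ENZ-NONE against DNC-NONE on the horizontal axis and the unadjusted -log10 p on the vertical axis; red marks the 41 genes called higher and blue the 19 called lower. Hspa1a, Hspa1b, Dusp1 and Fos lie farthest to the right among the called genes, and the 6 grey points farthest to the left are genes of the neutrophil marker list, Ngp at -11.50 among them.

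Heat shock genes. Hspa1a and Hspa1b encode inducible HSP70 chaperones, which bind unfolded proteins. Hspa1a was at 7.17, 0.931 and 1.66 CPM in DNC-NONE 1, 2 and 3 and at 1011, 383 and 1015 CPM in ENZ-NONE 4, 5 and 6. Every digested library was far above every Dounce library, and the log2 fold change was 7.63 ± 0.49 (SE, adjusted p = 8.26e-08). Hspa1b went from 0.398, 0.931 and 1.11 CPM to 83.1, 47.8 and 99.9 CPM (log2 fold change 6.62 ± 0.47, adjusted p = 1.43e-07), from only 4 UMIs over the 3 Dounce libraries. It reached 10 UMIs in the ENZ-NONE libraries alone and so could be tested only through the group where it was high. In both genes replicate 5 was the lowest digested library.

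The 2 genes lie side by side on chromosome 17, on the minus strand. How reads were counted between genes so alike was not tested, so how the rise divides between the 2 is uncertain. The stretches shown here are of their promoters, and the 3′ ends of the transcripts, which were counted, were not compared. Over the 300-base windows listed by RefSeq (250 bases before and 50 after the start site, build GRCm38.p6) 296 bases were the same, 98.7%. Capitals mark GAANNTTC, a pair of facing units of the heat shock element, which starts 104 bases before the start site in both (chr17:34972213-34972300 and chr17:34959295-34959382, written 5′ to 3′ along the gene).
Hspa1a: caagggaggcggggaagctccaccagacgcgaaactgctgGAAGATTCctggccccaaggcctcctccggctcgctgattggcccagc
Hspa1b: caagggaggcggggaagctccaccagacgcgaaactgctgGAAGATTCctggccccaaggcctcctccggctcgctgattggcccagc
GAANNTTC or TTCNNGAA, searched on both strands, was found in 5 of the 29 higher genes with a listed promoter (17.2%; Hspa1a, Hspa1b, Jun, Nfkbid and Hist1h2bg), in 3 of 15 lower genes (20%; Birc5, Dnajb4 and Top2a) and in 14.4% of the 7986 tested genes with one, so its share among the higher genes was near that of all promoters.

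Hsp90aa1 and Hsp90ab1 encode the inducible and the constitutive cytosolic HSP90. Hsp90aa1 was at 129, 108 and 116 CPM after Dounce and at 505, 312 and 544 CPM after digestion (log2 fold change 1.94 ± 0.17, adjusted p = 2.33e-06). The level of Hsp90ab1 rose less, from 611, 389 and 468 CPM to 951, 761 and 1066 CPM (0.91 ± 0.16 on the log2 scale, adjusted p = 0.00837), and its call was lost without DNC-NONE replicate 2 or 3 (adjusted p = 0.0769 and 0.053). Dnajb4, which encodes an HSP40 co-chaperone of HSP70, moved the other way. It was at 51.8, 42.8 and 47.2 CPM after Dounce and 33.4, 28.1 and 30.2 CPM after digestion (log2 fold change -0.64 ± 0.12, adjusted p = 0.0158). Among other alternatives, its call was lost in DESeq2 and in the fit of the 6 libraries alone (adjusted p = 0.146 and 0.131). It was also lost without DNC-NONE replicate 1 or 3 or ENZ-NONE replicate 5 (adjusted p = 0.129, 0.0546 and 0.0626). Of 19 heat shock chaperone genes tested from a list of 20, 4 rose, 1 fell and 14 did not pass, with a median log2 fold change of 0.25 for the list. Among 15 tested genes of the unfolded protein and integrated stress response, 1 rose. This was Ppp1r15a, which encodes a subunit that brings a phosphatase to the translation factor eIF2α (1.16 ± 0.25 on the log2 scale, adjusted p = 0.0348, and above 0.05 without any 1 of DNC-NONE replicates 2 and 3 and ENZ-NONE replicates 4 and 6), and Ddit3, the next by p, had 0.43 ± 0.15 (adjusted p = 0.343).

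AP-1 genes. AP-1 is a family of paired transcription factors made of FOS, JUN and ATF proteins. Fos was at 37.1, 0.931 and 2.77 CPM in DNC-NONE 1, 2 and 3 and at 416, 394 and 1852 CPM in ENZ-NONE 4, 5 and 6. Replicate 1 was the highest Dounce library and replicate 6 the highest digested one, and the log2 fold change was 5.71 ± 0.67 (adjusted p = 0.000101, or 0.0603 with the robust estimate of the spread). Jun went from 723, 219 and 203 CPM to 1813, 1879 and 3321 CPM (2.59 ± 0.35, adjusted p = 0.000634). Junb went from 770.2, 359 and 350.1 CPM to 1401, 1448 and 2751 CPM (1.91 ± 0.27, adjusted p = 0.000736). For both, replicate 1 lay well above the other Dounce libraries without reaching the digested ones.

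Jund was the AP-1 gene with the smallest p. Its level was 615, 354 and 343 CPM after Dounce and 1993, 2132 and 3089.7 CPM after digestion (log2 fold change 2.45 ± 0.20, adjusted p = 9.57e-07). Atf3 and Fosb rose from lower levels. Atf3, a stress-induced member, had 3.98, 12.1 and 15.5 CPM after Dounce and 53.9, 51.7 and 218 CPM after digestion (3.53 ± 0.54, adjusted p = 0.00211). Fosb had 11 UMIs over the Dounce libraries and 146 over the digested ones (3.46 ± 0.59, adjusted p = 0.00788). It reached 10 UMIs in the ENZ-NONE libraries alone and so was tested only through the group where it was high. DESeq2 and limma-voom did not call Fosb (adjusted p = 0.15 and 0.0871). Its call was also lost without DNC-NONE replicate 3 (adjusted p = 0.0546). Of 10 tested AP-1 genes 6 rose, 0 fell and the list median was 2.18 on the log2 scale. With the robust estimate the calls of Jun, Junb, Atf3 and Fosb were lost (adjusted p = 0.112, 0.112, 0.154 and 0.0695).

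**Figure D2:**
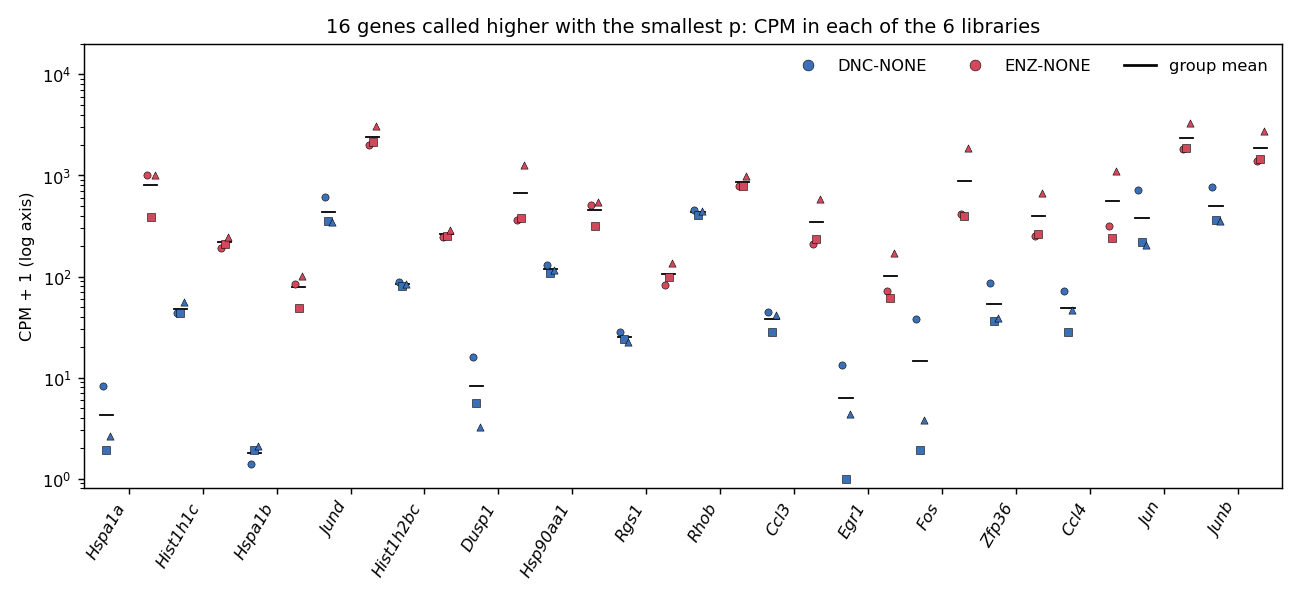
CPM plus 1 on a log axis in each of the 6 libraries for the 16 higher genes with the smallest p; blue is DNC-NONE, red is ENZ-NONE, circles, squares and triangles are the replicates in ascending number, and black bars are group means. The red points lie above the blue ones for each gene, and the red triangle (replicate 6) is far above the other red points for Fos, Dusp1 and Ccl4.

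EGR and IER genes and kinase feedback. Egr1 encodes a zinc finger factor induced by growth and stress signals. It was at 12.4, 0 and 3.33 CPM after Dounce and at 71.1, 60.9 and 169 CPM after digestion (log2 fold change 3.93 ± 0.46, adjusted p = 0.0001), and its call held in every alternative that tested it. Ier5 (1.28 ± 0.24, adjusted p = 0.0127), the antiproliferative gene Btg2 (1.20 ± 0.23, adjusted p = 0.0152) and Ier2 (1.97 ± 0.40, adjusted p = 0.0244) also rose. Replicate 6 was the highest in all 3, at 754, 855 and 344 CPM. Their calls were each lost in the fit of the 6 libraries alone (adjusted p = 0.131, 0.132 and 0.141). In this list 4 of 6 tested genes rose and 8 others, Nr4a1 among them, were too sparse to test.

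Dusp1 encodes a phosphatase that switches off MAP kinases and is itself induced by them. It was at 15.1, 4.66 and 2.22 CPM after Dounce and at 358, 378 and 1271 CPM after digestion, with a log2 fold change of 6.30 ± 0.54 (adjusted p = 1.85e-06). It was the only one of 8 tested genes for kinase phosphatases and feedback inhibitors to pass, and Spred1, the next by p, had 0.30 ± 0.11 (adjusted p = 0.431). The median of the list was 0.23.

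The cAMP response element, TGACGTCA, lay in the listed promoters of 5 of 29 higher genes (Dusp1, Btg2, Nfkbid, Ppp1r15a and Clk4; 17.2%), of Tubb2a among 15 lower genes (6.67%) and of 3.82% of tested genes with a promoter. These shares are a description, and a match of letters is not evidence of binding. A gene counted when at least 1 of its listed windows held the motif. The 4 promoters that follow are shown because this motif stands in them. Capitals mark it, 143, 166, 51 and 12 bases before the start site, at chr17:26508568-26508655 (minus strand), chr1:134079274-134079361 (minus), chr7:30422315-30422402 (plus) and chr7:45526269-45526340 (minus), from RefSeq on build GRCm38.p6.
Dusp1: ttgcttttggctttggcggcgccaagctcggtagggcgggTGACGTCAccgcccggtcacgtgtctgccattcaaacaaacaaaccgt
Btg2: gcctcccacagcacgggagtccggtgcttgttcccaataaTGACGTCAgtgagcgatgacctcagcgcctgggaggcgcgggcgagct
Nfkbid: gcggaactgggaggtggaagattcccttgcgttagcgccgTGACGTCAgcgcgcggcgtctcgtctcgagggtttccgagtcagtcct
Ppp1r15a: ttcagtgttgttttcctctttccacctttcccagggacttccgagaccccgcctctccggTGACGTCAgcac
The TATA box TATAAA was found in 8 of the 29 (27.6%; Fos, Junb, Ppp1r15a, Adamts1 and 4 histone genes) against 5.06% of tested genes with a promoter. The AP-1 site TGANTCA was found in 0 of the 29 and in 5.7% of the tested genes, and the CArG box in Zfp36 alone (3.45%, against 1.49%).

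Histone genes. Linker histones bind the DNA between nucleosomes and core histones form their centre; most are made during DNA replication, while a few are also copied in resting cells as polyadenylated RNA. Hist1h1c, a linker histone gene, was at 42.6, 42.8 and 55.5 CPM after Dounce and at 192, 211 and 246 CPM after digestion. The libraries of each group lay close together and the log2 fold change was 2.20 ± 0.15 (adjusted p = 1.43e-07). Hist1h2bc, a core histone gene, went from 87.3, 80.1 and 83.8 CPM to 245, 252 and 285 CPM (1.63 ± 0.13, adjusted p = 9.64e-07). Hist1h4i rose from 14 UMIs over the Dounce libraries to 89 (2.41 ± 0.34, adjusted p = 0.000736).

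Hist1h1d (3.61 ± 0.56, adjusted p = 0.00551), Hist2h2aa1 (3.36 ± 0.57, adjusted p = 0.00544) and Hist1h2bg (3.59 ± 0.68, adjusted p = 0.0127) rested on 8, 7 and 3 UMIs in DNC-NONE against 115, 89 and 46 in ENZ-NONE. DESeq2 did not call Hist1h1d or Hist1h2bg (adjusted p = 0.322 and 0.0609). Histone genes have close copies, and how reads were counted among them was not tested. Hist1h1d, Hist1h2bg and Hist1h4i reached 10 UMIs in the ENZ-NONE libraries alone, so they entered the test through the group where they were high. With them, 2 of 4 tested linker and 4 of 21 tested core histone genes rose, and 0 fell; Hist1h1c, Hist1h2bc and Hist2h2aa1 were the other 3.

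Chemokines, cytokines and NF-kB feedback. Ccl3 was at 43.8, 27 and 40.5 CPM after Dounce and at 209, 235 and 585 CPM after digestion (log2 fold change 3.17 ± 0.35, adjusted p = 4.31e-05). Ccl4 went from 70.9, 27 and 45.5 CPM to 313, 239 and 1118 CPM (3.47 ± 0.47, adjusted p = 0.000634, and 0.112 with the robust estimate). Both encode chemokines that attract monocytes and T cells. They were the 2 called among 10 tested chemokine genes. None of 8 tested cytokine genes passed: Il1b had 5.98, 3.72 and 2.77 CPM and then 7.9, 7.2 and 61.6 CPM (2.63 ± 0.69, adjusted p = 0.132), a high value in replicate 6 alone, with a call gained without ENZ-NONE replicate 4 or 5 (adjusted p = 0.0164 and 0.025), and Osm had 0.74 ± 0.25 (adjusted p = 0.331).

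Nfkbid and Nfkbiz encode nuclear inhibitor-like partners of NF-kB and were the 2 called among 18 tested genes of NF-kB subunits and feedback. Nfkbid went from 9.56, 3.72 and 8.32 CPM to 23.7, 17 and 44.5 CPM (1.90 ± 0.33, adjusted p = 0.00728) and Nfkbiz from 7.17, 2.79 and 3.88 CPM to 13.5, 17 and 46.8 CPM (2.38 ± 0.47, adjusted p = 0.0186). Both calls were lost in the fit of the 6 libraries alone (adjusted p = 0.0662 and 0.112), and that of Nfkbiz without DNC-NONE replicate 2 or 3 or ENZ-NONE replicate 6 (0.0959, 0.112 and 0.0541). The SOCS genes, which damp cytokine receptors, gave 0 calls of 8 tested. Socs3 was at 328, 32.6 and 41.6 CPM after Dounce and at 79.4, 119.8 and 1041 CPM after digestion, so that the groups overlapped (1.54 ± 0.75, adjusted p = 0.6). With DNC-NONE replicate 1 and ENZ-NONE replicate 6 both left out Socs3 was called (1.36, adjusted p = 0.0103), and without ENZ-NONE replicate 6 alone it was at -0.58, while Socs4 had 0.29 ± 0.18 (adjusted p = 0.777).

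Other regulators. Zfp36, whose protein marks cytokine messages for decay, was at 85.3, 35.4 and 37.7 CPM after Dounce and at 253, 262 and 669 CPM after digestion (2.83 ± 0.34, adjusted p = 0.000117). It was the 1 called of 10 tested in the list of mRNA decay and antiproliferative genes. Btg2, which also rose, was counted with the EGR and IER genes instead. Zfp36l1 had 0.65 ± 0.17 (adjusted p = 0.109, and 0.00368 without DNC-NONE replicate 1). Klf2, a transcription factor of resting endothelium and leukocytes, went from 90.8, 50.3 and 54.9 CPM to 219, 315 and 1158 CPM (3.07 ± 0.45, adjusted p = 0.00119), and Klf6 from 190.1, 112 and 146 CPM to 226, 241 and 558 CPM (1.18 ± 0.25, adjusted p = 0.0348). They were 2 of 9 Kruppel-like factor genes tested. Klf6 lost its call in 10 of the alternatives, DESeq2 and limma-voom among them (adjusted p = 0.0904 and 0.0803).

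Rgs1 encodes a brake on G protein signals from chemokine receptors. It was at 27.5, 23.3 and 21.6 CPM after Dounce and at 81.3, 97.5 and 135 CPM after digestion (2.10 ± 0.19, adjusted p = 3.14e-06), and was the 1 called of 7 tested in its family; Rgs18 had -1.73 ± 0.54 (adjusted p = 0.264, and 0.0258 without ENZ-NONE replicate 6). Rhob, a small GTPase gene induced by stress, rose from 453, 406 and 446 CPM to 793, 785 and 978 CPM (0.97 ± 0.10, adjusted p = 1.48e-05), with the groups well apart. Gem, another GTPase gene, rose from 9 to 88 UMIs (2.97 ± 0.53, adjusted p = 0.00772). These were 2 of 9 tested.

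The remaining higher genes did not share a pathway list with one another. Tmx4, which encodes a thioredoxin-like membrane protein, went from 49, 45.6 and 46.6 CPM to 70.6, 96.9 and 101 CPM (0.92 ± 0.14, adjusted p = 0.00182). Kctd12 rose by the least (0.63 ± 0.10, adjusted p = 0.00273) and missed the fold threshold without DNC-NONE replicate 2 or ENZ-NONE replicate 6. The extracellular protease gene Adamts1 had 2.64 ± 0.57 (adjusted p = 0.0364). Adamts1 ran from 28.7, 0.931 and 4.44 CPM to 37.6, 48.4 and 171 CPM, replicate 1 lying close to the digested libraries, and DESeq2 and limma-voom did not call it (adjusted p = 0.385 and 0.289). Without ENZ-NONE replicate 6 it was at 1.60 (adjusted p = 0.149), and its call was also lost without DNC-NONE replicate 2 or 3 (0.149 and 0.193).

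Txnip (0.73 ± 0.14, adjusted p = 0.0127), which encodes a thioredoxin-binding protein, and the splicing genes Hnrnph1 (0.71 ± 0.14, adjusted p = 0.0186) and Clk4 (0.69 ± 0.14, adjusted p = 0.026) made smaller steps. The call of Txnip was lost without DNC-NONE replicate 2 or ENZ-NONE replicate 6, that of Clk4 without DNC-NONE replicate 1 or 2 or ENZ-NONE replicate 4, and that of Hnrnph1 without any 1 library except ENZ-NONE replicate 6. Gm26532, a long non-coding RNA, had 1.79 ± 0.38 (adjusted p = 0.03) and lost its call without any 1 of DNC-NONE replicates 1, 2 and 3 (adjusted p = 0.203, 0.0959 and 0.0655) or ENZ-NONE replicate 6 (0.0531). Gm42418, which overlaps a ribosomal RNA repeat, went from 31.5, 41.9 and 41.6 CPM to 72.4, 62.8 and 66.2 CPM (0.85 ± 0.14, adjusted p = 0.0035), while Gm26917 from the same list had -0.25 ± 0.20 (adjusted p = 0.823).

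The higher genes were short and simple in structure. Of the 41, 14 (34.1%) had no transcript of more than 1 exon in the GENCODE vM21 annotation against 2.44% of tested genes, the median gene span was 3951 bases against 22800 and the median of the largest exon number was 3 against 9. Short primary transcripts are a known feature of immediate early genes. A total of 12 of the 41 overlap an annotated gene on the opposite strand (Jun and Junb among them), and 29.3% overlapped any gene against 38.9% of those tested. The count filter was passed through ENZ-NONE alone by 6 of the 41 (Hspa1b, Fosb, Gem, Hist1h4i, Hist1h1d and Hist1h2bg), which could be tested only because they were high there, and 7 had no DNC-NONE library with 10 UMIs.

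Groups that the test left uncalled. In disease-associated microglia genes 0 of 14 passed (list median -0.08), with Apoe at -0.76 ± 0.29 (adjusted p = 0.431, and 0.0379 without both DNC-NONE replicate 1 and ENZ-NONE replicate 6) and Ctsd at 0.22 ± 0.08 (adjusted p = 0.408). Complement genes gave 0 of 9 (0.04), with Itgam at 0.20 ± 0.09 (adjusted p = 0.589) and C5ar1 at 0.36 ± 0.21 (adjusted p = 0.705). Among cathepsin and lysosomal membrane genes 0 of 16 passed (0.01), and Lamp2 had 0.10 ± 0.08 (adjusted p = 0.835). Interferon-stimulated genes gave 0 of 15, with a median of -0.46 and 12 of 15 below 0, led by Ifit2 at -1.40 ± 0.40 (adjusted p = 0.194) and Oas1a at -1.04 ± 0.31 (adjusted p = 0.223). MHC class II genes gave 0 of 6, with a median of -0.64. Cd74, the invariant chain gene, was at 2163, 4344 and 1692 CPM after Dounce and 1698, 1179 and 1746 CPM after digestion (-0.82 ± 0.23, adjusted p = 0.194, and 0.029 without DNC-NONE replicate 3), DNC-NONE replicate 2 being highest, and H2-Ab1 had -0.76 ± 0.24 (adjusted p = 0.281, and 0.0424 without ENZ-NONE replicate 6).

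Survival and damage genes also gave no call, with 0 of 11 for p53 and DNA damage (Pmaip1 0.84 ± 0.26, adjusted p = 0.281; Gadd45g 1.23 ± 0.52, adjusted p = 0.503, and 0.00334 without both DNC-NONE replicate 1 and ENZ-NONE replicate 6) and 0 of 10 for the BCL2 family (Mcl1 0.37 ± 0.20, adjusted p = 0.66; Bid 0.25 ± 0.15, adjusted p = 0.71). Of 10 tested glucocorticoid-responsive genes, 1 was called, Txnip, and Fkbp5 had -0.65 ± 0.28 (adjusted p = 0.52). Oxidative stress and iron storage gave 0 of 10 (Hmox1 0.65 ± 0.28, adjusted p = 0.523; Prdx1 -0.09 ± 0.09, adjusted p = 0.869), and hypoxia and glycolysis 0 of 12 (Bnip3 0.36 ± 0.14, adjusted p = 0.437; Pfkfb3 0.34 ± 0.15, adjusted p = 0.529).

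Purinergic receptor genes gave 0 of 7, with P2ry13 at 0.24 ± 0.12 (adjusted p = 0.628) and P2rx4 at -0.18 ± 0.11 (adjusted p = 0.717). Cytosolic ribosomal protein genes gave 0 of 96 (Rpl7l1 0.23 ± 0.10, adjusted p = 0.551; Rpl4 -0.20 ± 0.11, adjusted p = 0.678). Mitochondrially encoded genes gave 0 of 13 (mt-Nd1 -0.22 ± 0.09, adjusted p = 0.455; mt-Co1 0.20 ± 0.09, adjusted p = 0.526). A gene that missed the threshold was not thereby shown to be equal in the 2 groups.

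Microglial identity and other cells. The 18 microglial identity genes summed to between 76419 and 80329.7 CPM after Dounce and between 80017 and 84314 CPM after digestion. Their log2 fold changes ran from -0.02 to 0.24, with a median of 0.10 and 17 of 18 above 0, and 0 of 18 passed. The purinergic receptor gene P2ry12, a marker of resting microglia, was at 6829, 8003 and 7671 CPM and then 8262, 8430.1 and 6156 CPM (0.02 ± 0.10). Csf1r, the receptor gene on which microglial survival depends, was at 4065, 3766 and 4007 CPM and then 3996, 3938 and 4159.7 CPM (0.03 ± 0.07). Their groups overlapped, and the sorted cells carried microglial markers in both preparations.

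Markers of other cells moved with the groups in part. Neutrophil markers were at 1658 and 4111 CPM in DNC-NONE replicates 2 and 3 and between 1.99 and 14.7 CPM in the other 4 libraries; 2 and 5 barcodes with at least 3 of the markers held 1758 of 1781 and 7267 of 7410 of those UMIs. The 8 border macrophage markers were all below 0 on the log2 scale (0 of 8 passed, median -0.98) and summed to 270.2 to 511 CPM after Dounce and 228 to 310.5 CPM after digestion. Monocyte markers summed to 196 to 344 CPM and 59.4 to 232 CPM, with 0 of 6 called. Lymphocyte markers summed to 49.8 to 71.7 CPM and 51.6 to 86.3 CPM, astrocyte markers to 163 to 246 CPM and 156 to 189.9 CPM, and oligodendrocyte markers to 130.3 to 172 CPM and 121 to 174 CPM. Barcodes with at least 3 lymphocyte markers numbered 0 in each Dounce library and in ENZ-NONE 4, and 2 and 4 in ENZ-NONE 5 and 6. The 3 lymphocyte markers tested had a median log2 fold change of 2.60, with 0 called. Neuron, vessel, choroid plexus and red blood cell markers each stayed at or under 71.7 CPM in every library. With every barcode holding at least 3 UMIs of these lists left out, 40 genes were higher and 17 lower, and 39 and 14 of these were among the 41 and 19, of which 39 and 16 could still be tested. None of the neutrophil, border macrophage or monocyte markers passed the test, and their part in the results was not tested beyond this.

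Detection in single barcodes. A sum over barcodes cannot tell more cells carrying a transcript from more transcript per cell, and neither can the share of barcodes with a UMI, which describes only how widely a transcript was detected. It was counted after each kept barcode was thinned to 1000 UMIs. The share that free RNA alone gives in these libraries was not measured. A Hspa1a UMI was found in 0.816%, 0.117% and 0.215% of barcodes of DNC-NONE 1, 2 and 3 and in 36.7%, 19% and 34.8% of those of ENZ-NONE 4, 5 and 6. Fos was found in 3.26%, 0.117% and 0.287% and then in 13.1%, 15.7% and 38.3%. Dusp1 was found in 1.25%, 0.585% and 0.143% and then in 11.3%, 14.7% and 29.7%. Without thinning, Hspa1a was found in 0.979%, 0.117% and 0.215% and then in 40.4%, 21.4% and 39.9%, and Fos in 3.97%, 0.117% and 0.287% and then in 15%, 16.7% and 42.4%. The 8 genes counted in this way had all been called higher already, so a separation of their shares between groups is not further evidence of a difference. For each of them the 95% exact binomial intervals, which cover counting error only and not the spread between animals, did not meet between groups at 1000 UMIs or without thinning. At 1500 UMIs, which left 93 barcodes in DNC-NONE replicate 2, they met for Ccl3, Hist1h1c, Hist1h2bc and Hsp90aa1 and stayed apart for Hspa1a, Fos, Dusp1 and Jund.

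Jund was already common after Dounce, in 43.1%, 29.6% and 27.4% of barcodes, and was found in 59%, 66.1% and 74.5% after digestion. Hist1h1c was detected in 4.49% ± 0.76 (SD, n = 3) and 14% ± 1.23, Hist1h2bc in 7.62% ± 0.518 and 18.9% ± 1.1, and Hsp90aa1 in 10.4% ± 1.54 and 26.6% ± 4.79. At least 3 of these 7 genes were found together in 0.979%, 0.819% and 0.573% of Dounce barcodes and in 29.9%, 25.7% and 46.9% of digested ones. None of the 7 was found in 42.9%, 57.9% and 54.9% of Dounce barcodes, and in 20.2%, 20.6% and 11.7% after digestion. All 7 had already been called higher, so these shares are a description only.

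**Figure D3:**
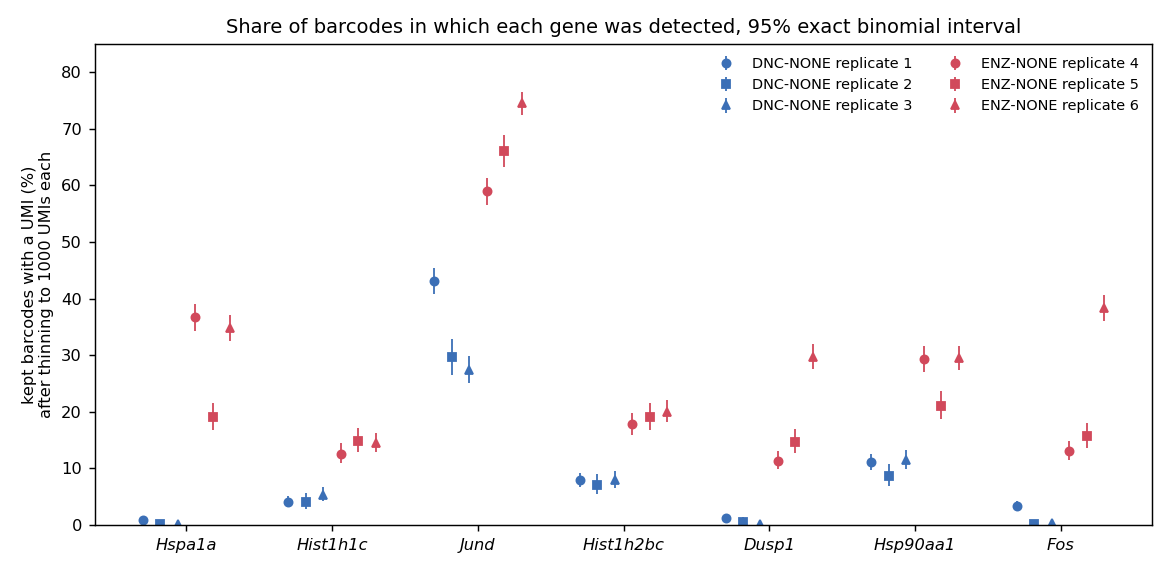
Percent of kept barcodes with at least 1 UMI of each gene after thinning to 1000 UMIs, for the 3 DNC-NONE (blue) and 3 ENZ-NONE (red) libraries, with 95% exact binomial intervals. Hspa1a, Dusp1 and Fos are near 0 in the Dounce libraries and reach 36.7%, 29.7% and 38.3% in the highest digested library.

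Within the digested libraries, barcodes with a Fos UMI more often held Dusp1 than barcodes without one: 36.4% against 7.55% in ENZ-NONE 4, 35.2% against 10.9% in ENZ-NONE 5 and 54.3% against 14.4% in ENZ-NONE 6. For Hspa1a the gap was smaller and varied, 54.9% against 33.9%, 22.7% against 18.3% and 44.2% against 28.9%. Ccl3 was found in 18%, 14.8% and 25.2% of barcodes with Fos and in 7.55%, 7.64% and 11.7% without. Cells of 1 library are not replicates, and these shares are given as a description with no test.

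Genes lower after digestion. The 19 lower genes changed less than the higher ones, with a median log2 fold change of -1.08 against 2.20. Gm20045, a long non-coding RNA, was at 20.7, 21.4 and 22.2 CPM after Dounce and at 4.18, 9.16 and 8.52 CPM after digestion (-1.57 ± 0.24, adjusted p = 0.00211), and was the only one of the 19 whose call held in every alternative that tested it. Without 1 library, calls of the 19 held for 7 (without DNC-NONE replicate 1), 13 (replicate 2) and 10 (replicate 3), and for 8, 12 and 12 without ENZ-NONE replicates 4, 5 and 6. Zfp146, a zinc finger gene, went from 23.5, 25.1 and 21.6 CPM to 12.1, 6.55 and 6.19 CPM (-1.48 ± 0.23, adjusted p = 0.00276). Fam212a lay just past the fold threshold, with 249, 274 and 288 CPM and then 190.4, 185 and 166 CPM (-0.58 ± 0.10, adjusted p = 0.0052). The non-coding share was 26.3% (5 of 19: Gm20045, 9330160F10Rik, AC160336.1, Mir142hg and Snhg20) against 4.88% of the higher genes and 2.89% of all tested.

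Mir142hg, the host transcript of a microRNA of blood cells, fell from 61 to 17 UMIs (-2.08 ± 0.44, adjusted p = 0.0339) and Snhg20, a snoRNA host, from 55.4, 71.7 and 87.7 CPM to 46.4, 49.1 and 32.9 CPM (-0.75 ± 0.17, adjusted p = 0.0442). They were the 2 called of 8 tested snoRNA host and nuclear RNAs. Among the rest, Arl10 (-0.73 ± 0.12, adjusted p = 0.00544), A930033H14Rik (-1.10 ± 0.20, adjusted p = 0.00788), 9330160F10Rik (-1.14 ± 0.22, adjusted p = 0.0177), Bcdin3d (-0.62 ± 0.12, adjusted p = 0.0188), Lcmt2 (-0.98 ± 0.20, adjusted p = 0.0248) and Rmi2 (-1.08 ± 0.23, adjusted p = 0.0289) fell. So did AC160336.1 (-0.98 ± 0.21, adjusted p = 0.03), the tubulin gene Tubb2a (-0.70 ± 0.15, adjusted p = 0.0302) and Prrc2b (-1.04 ± 0.22, adjusted p = 0.0355). Wdr38 had 13 UMIs over the Dounce libraries and 0 over the digested ones, at least 5.21-fold lower against a floor of 3 counts over the group (adjusted p = 0.025).

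A further 3 of the lower genes belong to cell division. Like Wdr38, they reached 10 UMIs in Dounce libraries alone, with or without inhibitors. They could thus be tested only through the preparation where they were high. Top2a, which encodes the topoisomerase that untangles chromosomes, was at 6.38, 7.45 and 13.3 CPM after Dounce and at 0, 1.96 and 0 CPM after digestion (-4.07 ± 0.86, adjusted p = 0.0316). Birc5, the survivin gene, went from 48 to 4 UMIs (-3.65 ± 0.62, adjusted p = 0.00544) and Mastl, a mitotic kinase gene, from 33 to 4 UMIs (-3.14 ± 0.57, adjusted p = 0.00882). The Top2a UMIs came from few barcodes, 5, 4 and 7 in DNC-NONE 1, 2 and 3. The barcodes that held the Birc5 and Mastl UMIs were not counted. In a list of 16 division genes, written after these values were seen, 5, 4 and 8 barcodes of DNC-NONE 1, 2 and 3 and 0, 2 and 2 barcodes of ENZ-NONE 4, 5 and 6 held at least 3 of the genes. The Dounce barcodes among them held 47 of the 48 Top2a UMIs, and the share of kept barcodes was 0.272% to 0.573% after Dounce and 0% to 0.179% after digestion, where 0 of 1570 barcodes in ENZ-NONE 4 allows up to 0.191% by a floor of 3 counts and has an exact 95% upper limit of 0.235%.

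**Figure D4:**
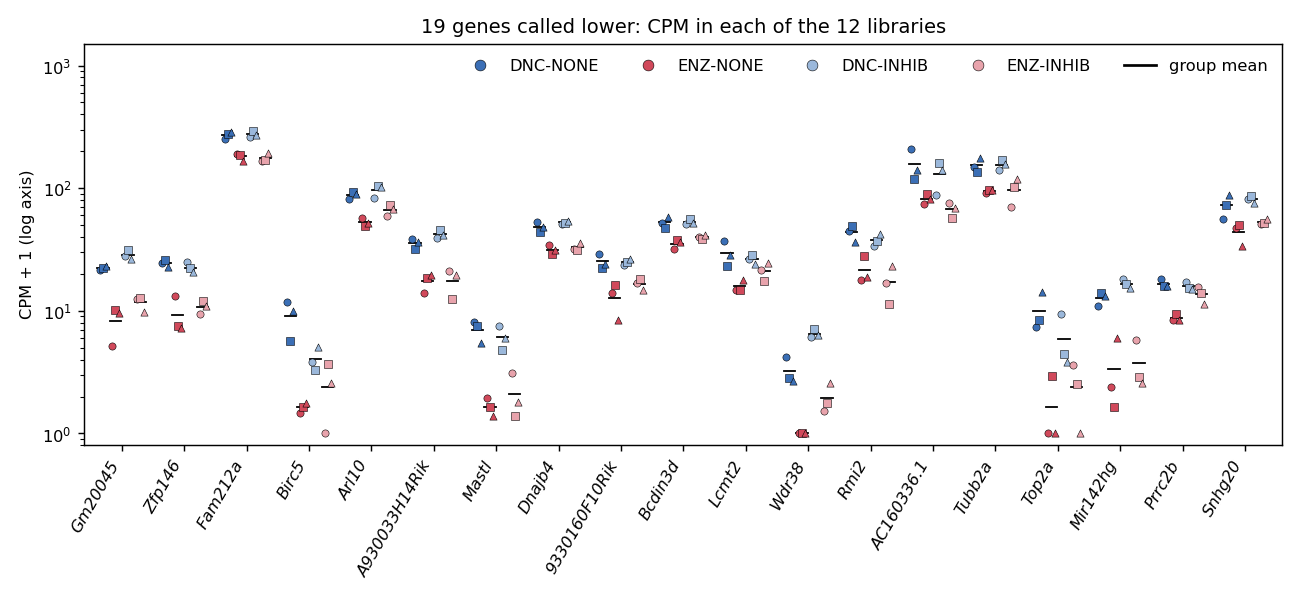
CPM plus 1 on a log axis for the 19 genes called lower, in all 12 libraries; dark colours are the preparations without inhibitors, pale colours those with inhibitors, circles, squares and triangles are the replicates in ascending number, and black bars are group means. For Gm20045, A930033H14Rik and Dnajb4 the enzymatic libraries (red, pale red) lie below the Dounce libraries (blue, pale blue) in both settings.

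Digestion with inhibitors present. ENZ-INHIB against DNC-INHIB shares no library with the comparison above. There, 1 gene was called higher (0.0101% of those tested) and 17 lower (0.172%). Of the 41 genes higher without inhibitors, 20 had a log2 fold change above 0 with inhibitors. The median of the 41 was 0.00, and 1 (2.44%) was called, Gm42418 (1.10 ± 0.13, adjusted p = 0.00117). That median counts Hist1h1d, which had no UMI with inhibitors and a fitted value of 0.00. Of the 19 lower genes, all had a log2 fold change below 0 with inhibitors, the median was -0.98, and 8 (42.1%) were called: Gm20045, Zfp146, Fam212a, A930033H14Rik, Dnajb4, Wdr38, Rmi2 and Mir142hg. Wdr38 passed the count filter through DNC-INHIB alone, with 44 UMIs over that group and 7 over ENZ-INHIB. It could thus be tested only through the group of this comparison where it was high.

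The difference between the 2 digestion effects was tested in the same fit, and 18 genes passed (0.182%), each with the larger effect without inhibitors. Of these, 17 were among the 41 and 0 among the 19. The difference includes the same ENZ-NONE and DNC-NONE libraries that gave the 41, so this overlap is not independent evidence. Hspa1b and Hist1h4i, among the 17, passed the count filter through ENZ-NONE alone. For Hspa1a the digestion effect was 7.63 ± 0.49 without and -0.93 ± 0.61 with inhibitors, a difference of 8.56 ± 0.83 (adjusted p = 3.29e-05). For Hist1h1c it was 2.20 ± 0.15 and -0.44 ± 0.16 (difference 2.64 ± 0.22, adjusted p = 8.15e-06). Dusp1 differed by 6.02 ± 1.12 (adjusted p = 0.0289), Ccl3 by 3.56 ± 0.56 (adjusted p = 0.00849) and Jund by 2.41 ± 0.27 (adjusted p = 0.000132).

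Fos, for which the effects were 5.71 ± 0.67 and 0.26 ± 1.71, did not pass the test of the difference (5.44 ± 2.15, adjusted p = 1), nor did Egr1 (4.11 ± 1.26, adjusted p = 0.95). With inhibitors, Fos had 18 UMIs over the Dounce libraries and 19 over the digested ones, and Egr1 18 and 14. Hist1h1d had 0 UMIs in all 6 of those libraries. With the robust estimate of the spread the number of genes passing was 6.

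**Figure D5:**
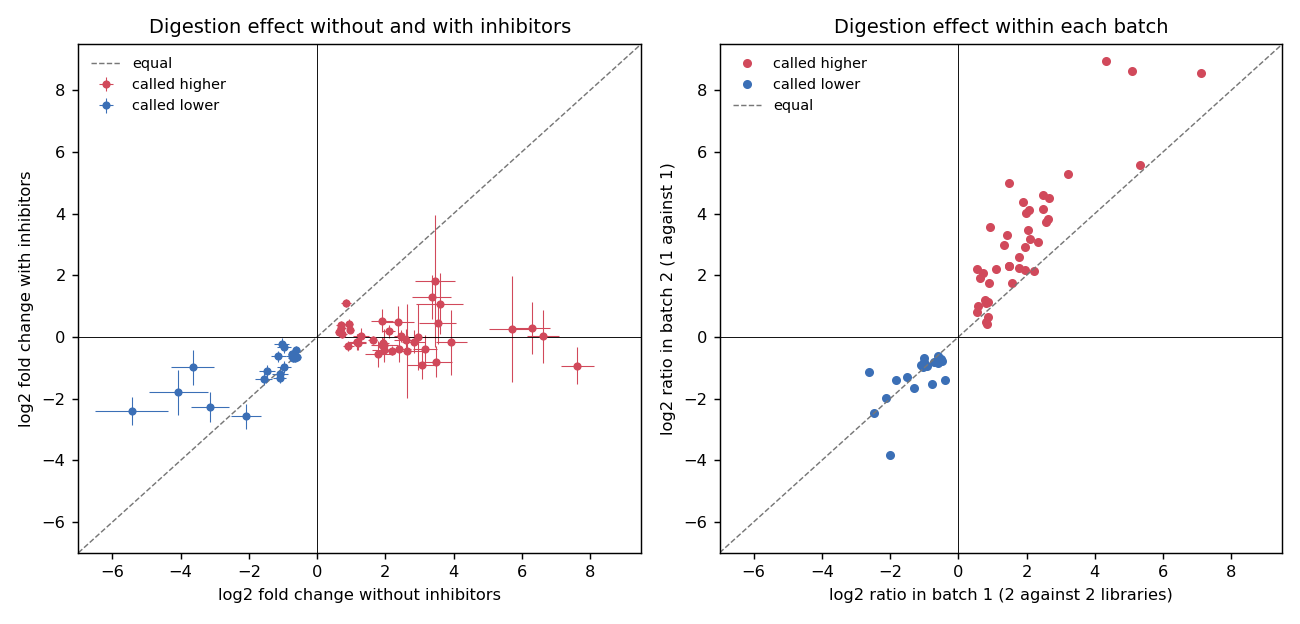
Left, log2 fold change of digestion against Dounce without inhibitors (horizontal) and with inhibitors (vertical) with standard errors, for the called genes other than Hist1h1d, which had no UMI with inhibitors; right, log2 ratios of mean CPM plus 1 within batch 1 and batch 2. The higher genes shown (red) spread along the horizontal axis at left, while the 19 lower genes (blue) lie below 0 on both axes. At right most red points lie above the dashed line of equal values.

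Batches. In both batches all 41 higher genes had a ratio above 1 and all 19 lower genes a ratio below 1. These directions were fixed in advance, because the ENZ-NONE and DNC-NONE libraries did not overlap for any of the 60 genes. Only the sizes of the ratios could differ between batches. For the higher genes the median log2 ratio of mean CPM plus 1 was 1.77 in batch 1 (2 against 2 libraries) and 2.93 in batch 2 (1 against 1), larger in batch 2 for 37 of 41. Fos had 4.34 and 8.94, Dusp1 5.08 and 8.63, Hist1h1c 2.21 and 2.13. For the lower genes the medians were -1.02 and -0.96. Batch 2 rested on DNC-NONE 3 and ENZ-NONE 6, and ENZ-NONE 6 was the highest digested library for 36 of the 41 genes. Batch and animal cannot be told apart there. With batch as a term in the fit, 42 genes were higher and 21 lower, with all 41 and all 19 among them.

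Most higher genes were also listed by the study as activation genes. All 25 genes of its list for sorted myeloid cells were called higher, and 14 of 17 tested from its list for unsorted brain. Both lists were chosen on samples of this study. The paper took the sorted-cell list as the overlap of comparisons with ENZ-NONE, among them DNC-NONE against ENZ-NONE on these animals, so its match was nearly fixed in advance. The unsorted-brain list came from other mice, all digested, compared with and without inhibitors. Neither list is taken here as independent evidence of a direction.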

How the data were processed

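The authors demultiplexed the reads and counted UMIs per gene and barcode with Cell Ranger 3.0.0 on mm10 (GRCm38), per the study's methods and the labels, and deposited 1 matrix of raw counts per library, listing 31053 genes. Barcodes were kept at 500 genes, 1000 UMIs and at most 10% mt- UMIs, and their counts summed per library. Doublets were not removed; 7 kept barcodes (0.0821%) held at least 3 genes and 5 UMIs of neuron, astrocyte, oligodendrocyte, vessel, choroid plexus and red blood cell markers. Genes with at least 10 UMIs in 3 of 12 libraries (9899) entered 1 edgeR 4.0.16 quasi-likelihood fit (R 4.3.3, TMM, 1 mean per group, 8 residual degrees of freedom). Levels are CPM on TMM-scaled totals, and standard errors are the log2 fold change over the root of the F statistic. The fit was tested on simulated data. Each library is 1 animal. Alternatives used DESeq2 1.42.0, limma 3.58.1 (voom), other filters, thinning and left-out libraries.

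The text names every called gene and, from each pathway list, the 2 tested genes with the smallest p, except for some results that are not reported here. Members and lists were chosen with earlier results of these data known. Barcode shares are given for the 6 higher genes with the smallest p above a mean of 100 CPM, for Fos and, chosen after the values were seen, Ccl3. Positions are from GENCODE vM21 and RefSeq, both on GRCm38; promoters were matched for 29 of 41 higher, 15 of 19 lower and 7986 of 9899 tested genes, through older symbols where needed.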

Additional observations from a re-analysis of the deposited data

Results flagged for a closer look

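For 17 of the genes called higher after digestion, the effect of digestion differed between preparations without and with inhibitors by the test of that difference in the edgeR fit. On the log2 scale the differences were 8.56 for Hspa1a, 6.60 for Hspa1b, 2.15 for Hsp90aa1 and 1.21 for Hsp90ab1 among heat shock genes. They were 2.64 for Hist1h1c, 1.72 for Hist1h2bc and 2.80 for Hist1h4i among histone genes, and 2.41 for Jund, 2.18 for Junb and 2.68 for Jun among AP-1 genes. The chemokine genes gave 3.56 for Ccl3 and 4.28 for Ccl4. Dusp1 gave 6.02, Klf2 3.97, Zfp36 2.98, Rgs1 1.93 and Rhob 0.74. Hspa1b (SE 1.25) and Hist1h4i (SE 0.55) reached 10 UMIs in the ENZ-NONE libraries alone. They could thus enter this test only through the group where they were high. With inhibitors, Hspa1b had 10 UMIs over the Dounce libraries and 9 over the digested ones.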

How the results depend on the processing

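No paired analysis was possible because ENZ-NONE and DNC-NONE share no replicate number. Of the 60 genes, 0 changed sign in any alternative; 13 of the 41 higher genes (Hspa1a, Hist1h1c, Hspa1b, Jund, Hist1h2bc, Dusp1, Hsp90aa1, Rgs1, Rhob, Ccl3, Egr1, Hist1h4i and Tmx4) and 1 of the 19 lower genes (Gm20045) were called in each alternative that tested them. With no count filter, 203 genes were called, 77 higher and 126 lower, and 73 in the difference; the cause was not tested. The fit of the 6 libraries alone called 11 lower, sums thinned to the smallest library 8, every deposited barcode 32 and the looser cell filter 33. Leaving out 1 library gave 40 to 94 calls, 27 to 44 higher, 11 to 58 lower and 7 to 19 in the difference. The low of 27 came without DNC-NONE replicate 2, the 11 without ENZ-NONE replicate 4 and the 94 and 58 without ENZ-NONE replicate 6; the 7 came without DNC-INHIB replicate 5, and 8 to 10 without DNC-NONE replicate 2 or 3 or ENZ-INHIB replicate 2 or 3. Of 2 alternatives chosen after seeing the data, the robust estimate gave 26 higher and 6 in the difference, and leaving out both DNC-NONE replicate 1 and ENZ-NONE replicate 6 gave 39 lower and 28 in the difference. Without ENZ-NONE replicate 6 the uncalled Socs3, Mcl1 and C5ar1 turned to -0.58, -0.03 and -0.07, from ranges over left-out libraries that reached 3.47, 0.54 and 0.58. Prdx1 was at 0.00 under the looser cell filter. Gm26917 ran from -0.44 to 0.09, the latter without DNC-NONE replicate 1, and was at 0.14 with both libraries left out. DESeq2 gave Fos no adjusted p. With sums thinned to the smallest library, 15 of the 19 lower genes could be tested and 3 were still called; with the same number of barcodes per library, 15 and 6.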
